A study of Mus musculus with 12 samples.

Results

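Natural killer (NK) cell receptors were examined on CD8 T cells through 7 genes of 22180 measured: Klrc1, Klrd1, Klrk1, Klrg1, Klrb1c, Crtam and Cd226. Each gene was read from its only probe set, a group of probes that the platform annotation assigns to exactly 1 gene symbol. Of the 7, 5 reached a mean of 5 on the log2 scale in at least 1 group and were tested, as were 9862 genes in all. Klrg1 and Klrb1c stayed below that level.

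RNA came from mouse splenic CD8 T cells profiled on 12 Affymetrix arrays. Naive cells of both genotypes had been mixed 1:1, activated together with antibodies to CD3 (1 µg/ml) and to CD28 (3 µg/ml), and separated by allelic markers when the 4-day culture ended. Tc17 STAT3-/- and Tc17 WT cells received IL-6 and TGFb for 3 days. Tc1 STAT3-/- and Tc1 WT cells received IL-12 over the same time, and all 4 groups then had 1 day of IL-2. The STAT3-/- cells were Cd4cre+ STAT3fl/fl, a genotype in which Cre under control of Cd4 removes a floxed Stat3, so the deletion is made in T cells during their development and not in the culture. The labels do not say how many mice were used, whether mice were pooled, or their age. They name 2 biological replicates and 1 technical replicate per group. The technical array carries the number 2 and was averaged with biological replicate 2, which gave 2 samples per group. An SD over these 2 samples can be smaller than the spread of the 3 arrays behind it. Where 3 array values are given, they are biological array 1, biological array 2 and the technical array.

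NK receptors let a killer cell weigh inhibitory against activating signals from surface molecules of other cells. Activated CD8 T cells acquire some of them. NKG2A, encoded by Klrc1, reaches the surface as a dimer with CD94, encoded by Klrd1, and inhibits the cell when it binds Qa-1, a non-classical MHC class I molecule in mice. NKG2D, encoded by Klrk1, is activating and binds stress-induced ligands such as MULT-1. DNAM-1, encoded by Cd226, is activating and shares its ligand CD155 with the receptors TIGIT and CD96. CRTAM binds CADM1 on other cells. KLRG1 is an inhibitory receptor for cadherins, and Klrb1c encodes NK1.1, which marks NK cells in some mouse strains. STAT3 is the transcription factor activated downstream of the IL-6 receptor.

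The promoter sequences, from RefSeq on build GRCm38.p6, are shown for the members that have an entry, 3 of 7. Each runs 5′ to 3′ on the minus strand of chromosome 6, with 250 bases before the gene's start and 50 after it. Those of Klrc1 (chr6:129678924-129679223), Klrk1 (chr6:129623815-129624114) and Klrb1c (chr6:128788592-128788891) come from 1 gene complex. Of these, Klrc1 and Klrk1 were tested, and their group means had different orders. Capitals mark matches to the RUNX motif TGTGGT or its reverse complement and to the AP-1 motif TGANTCA.
Klrc1: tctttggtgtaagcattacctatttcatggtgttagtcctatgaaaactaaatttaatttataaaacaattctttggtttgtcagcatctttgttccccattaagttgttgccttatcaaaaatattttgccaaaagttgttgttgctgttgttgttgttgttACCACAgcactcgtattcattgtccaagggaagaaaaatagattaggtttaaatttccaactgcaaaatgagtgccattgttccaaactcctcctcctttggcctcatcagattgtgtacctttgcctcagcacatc
Klrk1: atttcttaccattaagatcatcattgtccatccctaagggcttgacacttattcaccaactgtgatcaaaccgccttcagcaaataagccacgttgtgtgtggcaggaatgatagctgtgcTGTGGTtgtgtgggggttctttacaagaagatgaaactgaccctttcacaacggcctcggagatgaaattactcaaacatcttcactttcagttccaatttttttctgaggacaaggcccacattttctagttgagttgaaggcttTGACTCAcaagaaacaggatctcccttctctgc
Klrb1c: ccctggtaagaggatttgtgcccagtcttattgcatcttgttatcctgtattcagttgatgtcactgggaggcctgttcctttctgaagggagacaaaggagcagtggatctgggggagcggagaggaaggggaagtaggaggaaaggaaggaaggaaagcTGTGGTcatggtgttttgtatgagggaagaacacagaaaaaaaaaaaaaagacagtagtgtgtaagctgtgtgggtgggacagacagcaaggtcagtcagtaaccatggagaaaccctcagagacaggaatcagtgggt
The search covered both strands and 4 motifs, with no overlap between matches. Each promoter held 1 RUNX match, with its first base at -87 in Klrc1, -129 in Klrk1 and -89 in Klrb1c, where the base before the start is -1. Of 32817 mouse promoters of the same length, 16.8% held that motif. The Klrk1 promoter also held TGACTCA at base 18 after the start, and 7.81% of promoters held the AP-1 motif. The STAT motif TTCNNNGAA, in 8.29% of promoters, and the T-box motif GGTGTGA, in 3.98%, were not found in the letters of these windows. These matches describe the windows and are not measured binding sites.

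In Tc17 cells, loss of STAT3 went with lower Klrc1, Klrd1 and Crtam and with higher Cd226. Calls were made at an adjusted p under 0.05 from limma with Benjamini-Hochberg adjustment over all 9862 genes tested, and 4 of the 5 tested members passed, 1 higher and 3 lower. Of all genes tested, 25.1% passed in this comparison, 18.2% higher and 6.83% lower, as 1799 and 674 genes. With the median of the tested genes subtracted from each array that split was 1085 higher and 1110 lower. The STAT3-/- and WT arrays did not overlap for any of the 5 members, as for 44.3% of all genes. In Tc1 cells 0 of the 5 members passed between the genotypes with limma, against 0.0608% of all genes (0.0203% higher and 0.0406% lower). An unadjusted limma p under 0.05 was found there for 1 of the 5, against 370 of all 9862 genes tested. The arrays of the genotypes overlapped there for all 5, while 7.79% of all genes had arrays apart. Between Tc17 and Tc1 cells of WT genotype all 5 tested members passed, 3 higher and 2 lower, where 25% of all genes did, 7.01% higher and 18% lower, as 691 and 1777 genes. With the median subtracted the split was 1139 higher and 1115 lower. The Tc17 and Tc1 WT arrays did not overlap for these 5, as for 40.8% of all genes. Between Tc17 and Tc1 cells of STAT3-/- genotype 0 of the 5 passed with limma, against 2.07% of all genes (1.05% higher and 1.01% lower). Here 2 of the 5 had an unadjusted limma p under 0.05, against 1098 of all 9862 genes tested. These comparisons share groups, so they are not independent of each other. In bulk RNA, fewer cells that express a gene and less of its RNA per cell cannot be told apart.

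**Figure D1:**
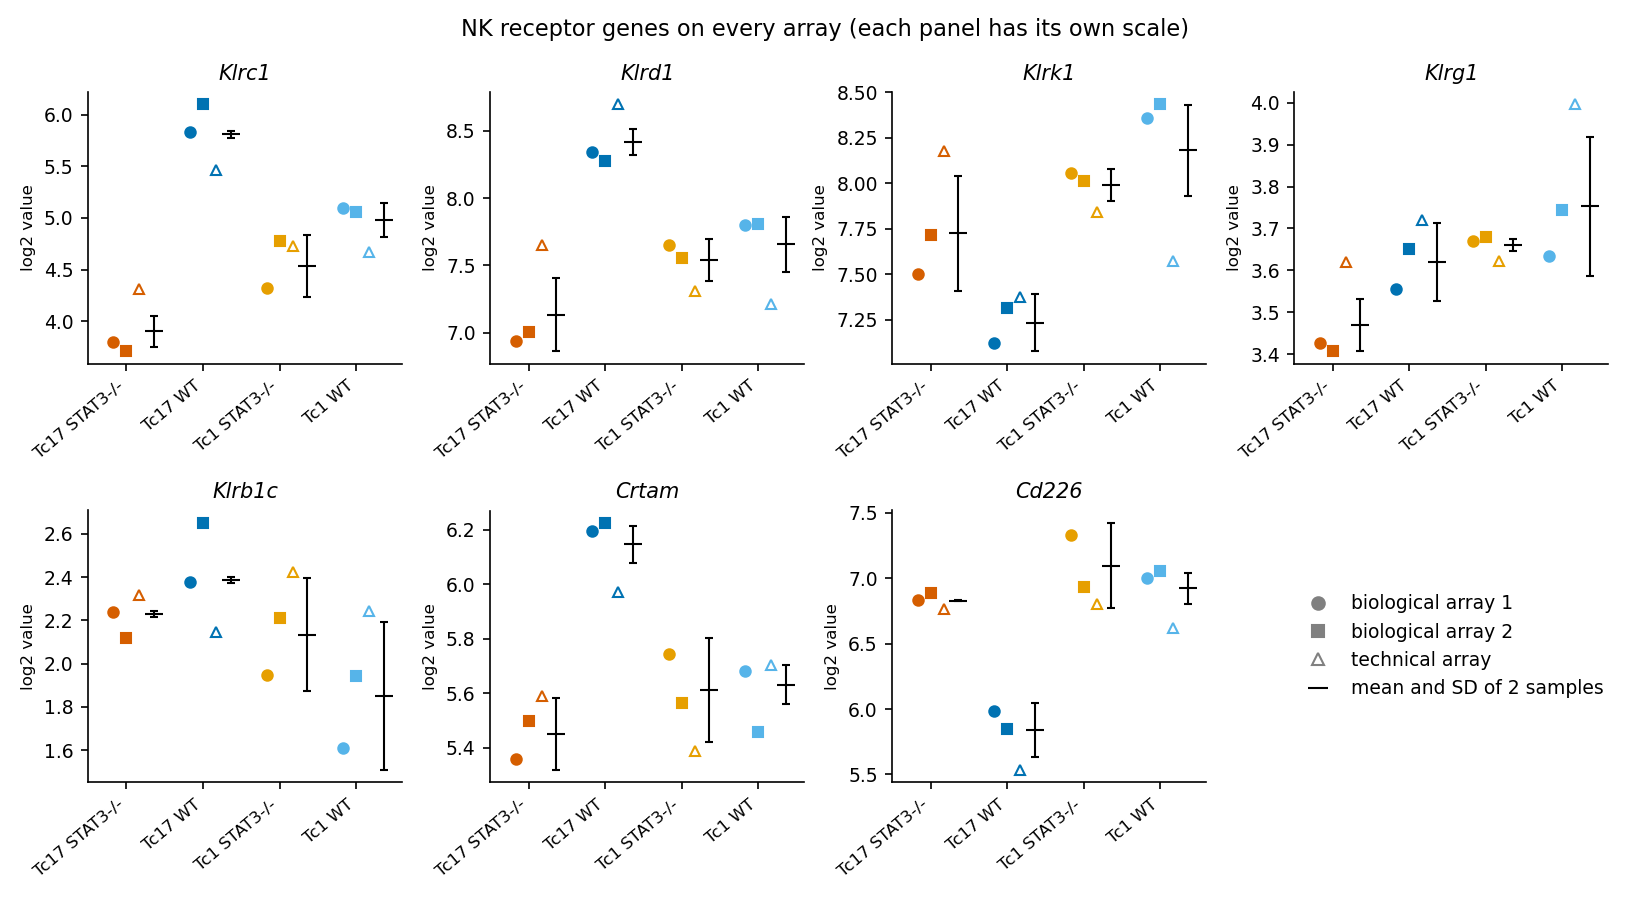
Log2 expression of the 7 NK receptor genes on each of the 12 arrays (y axis), by group (x axis), where circles are biological array 1, squares biological array 2 and open triangles technical arrays, and black bars are the mean and SD of 2 samples; each panel has its own scale. By mean, Klrc1, Klrd1 and Crtam are highest in Tc17 WT cells, Klrk1 and Cd226 are lowest there, and Klrg1 and Klrb1c lie below the level of 5 needed for a test on all 12 arrays.

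The clearest change among the members was in Klrc1, the NKG2A subunit that carries the inhibitory motifs. Its log2 values were 3.80, 3.71 and 4.31 on the Tc17 STAT3-/- arrays, against 5.83, 6.10 and 5.47 on the Tc17 WT arrays. All 3 STAT3-/- arrays lay below all 3 WT arrays. The group means were 3.90 ± 0.15 in Tc17 STAT3-/- cells and 5.81 ± 0.04 in Tc17 WT cells (SD, n = 2 each). The small WT SD follows from averaging the technical array with biological array 2, as the 3 WT arrays spread from 5.47 to 6.10. The log2 change was -1.91 ± 0.15 (SE, 95% interval -2.25 to -1.56), 3.75-fold lower without STAT3, with a limma adjusted p of 6.31e-05. Klrc1 entered the test only because its Tc17 WT mean exceeded 5, so a lower level in the other groups was in part set by that filter, although the same call was made with no filter. In Tc17 STAT3-/- cells its mean stood above only 39.5% of all genes, a range in which log2 differences on arrays are compressed.

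On the Tc1 arrays Klrc1 read 4.32, 4.78 and 4.72 in STAT3-/- cells, against 5.10, 5.06 and 4.67 in WT cells. The genotypes overlapped there, because the technical WT array lay among the STAT3-/- arrays. The means were 4.54 ± 0.30 and 4.98 ± 0.17 (SD, n = 2 each). The log2 change of -0.45 ± 0.15 (SE, 95% interval -0.79 to -0.10) had an unadjusted p of 0.0162 and a limma adjusted p of 0.998, and was not called. The STAT3 effect in Tc17 minus that in Tc1, the interaction, was -1.46 ± 0.21 (SE) with a limma adjusted p of 0.00563. Of the 5 tested members 3 had a called interaction, all of them more negative in Tc17, where 6.85% of all genes had one, 2.37% of that sign and 4.48% of the other. Between culture conditions Klrc1 was higher in Tc17 than in Tc1 cells of WT genotype, by 0.83 ± 0.15 (SE, 1.77-fold, limma adjusted p = 0.00518). Within STAT3-/- cells the difference was -0.63 ± 0.15 (SE) and was not called (limma adjusted p = 0.0866), although all 3 Tc17 arrays lay below the Tc1 arrays, as for 16.4% of all genes. That difference passed with the technical arrays left out, at -0.80 (limma adjusted p = 0.0152), with the technical array averaged into biological replicate 1, at -0.77 (adjusted p = 0.0232), with only the Tc17 STAT3-/- technical array left out, at -0.78 (adjusted p = 0.0259), and without Tc1 STAT3-/- replicate 1, at an adjusted p of 0.0421.

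Klrd1, whose product CD94 pairs with NKG2A, followed the same order of groups. Its log2 values were 6.94, 7.0 and 7.65 on the Tc17 STAT3-/- arrays, against 8.35, 8.28 and 8.70 on the Tc17 WT arrays. The 2 biological STAT3-/- arrays lay close together, and the technical one stood higher but still below every WT array. The means were 7.13 ± 0.27 in STAT3-/- cells and 8.42 ± 0.10 in WT cells (SD, n = 2 each). The log2 change was -1.28 ± 0.15 (SE, 95% interval -1.63 to -0.94), 2.44-fold lower, with a limma adjusted p of 0.000636. In Tc1 cells the arrays read 7.65, 7.55 and 7.31 for STAT3-/-, against 7.80, 7.81 and 7.22 for WT. These overlapped, with means of 7.54 ± 0.16 and 7.66 ± 0.20 (SD, n = 2 each). The log2 difference of -0.11 (95% interval -0.46 to 0.23) had a limma adjusted p of 0.998.

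The interaction for Klrd1 was -1.17 ± 0.22 (SE, limma adjusted p = 0.0159). It missed the threshold without Tc17 STAT3-/- replicate 1 (adjusted p = 0.0608), without Tc1 STAT3-/- replicate 1 (adjusted p = 0.0572) or without Tc1 WT replicate 2 (adjusted p = 0.0559). In WT cells Klrd1 was higher in Tc17 than in Tc1 by 0.76 ± 0.15 (SE, 1.70-fold, limma adjusted p = 0.00808), a call that was lost without Tc1 WT replicate 2 (adjusted p = 0.0579). Among STAT3-/- cells the Tc17 minus Tc1 difference was -0.41 and was not called (limma adjusted p = 0.344). With the technical arrays left out it was -0.63 and called (limma adjusted p = 0.00233).

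As a pair, Klrc1 and Klrd1 both ranked Tc17 WT highest, then Tc1 WT, Tc1 STAT3-/- and Tc17 STAT3-/- lowest. For both genes the top step of that order, Tc17 WT against Tc1 WT, was called and the lower steps between neighbours were not. The Klrc1 value minus the Klrd1 value averaged -3.23 ± 0.12 in Tc17 STAT3-/- cells and -2.61 ± 0.14 in Tc17 WT cells (SD, n = 2 each). By array it was -3.15, -3.29 and -3.35 in Tc17 STAT3-/- cells, against -2.51, -2.18 and -3.23 in Tc17 WT cells. The technical WT array thus lay within the range of the STAT3-/- arrays, which its average with biological array 2 does not show. It averaged -3.01 ± 0.46 in Tc1 STAT3-/- cells and -2.67 ± 0.04 in Tc1 WT cells. These differences between probe sets show only how the pair shifted between groups, since different probes do not give comparable levels. Across the 8 samples the genes had a Pearson r of 0.934, a description of samples that fall into 4 groups and were normalised together. Qa-1, the ligand, is encoded by H2-T23, which changed by -0.04 between Tc17 STAT3-/- and Tc17 WT cells and was not called (limma adjusted p = 0.825).

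**Figure D2:**
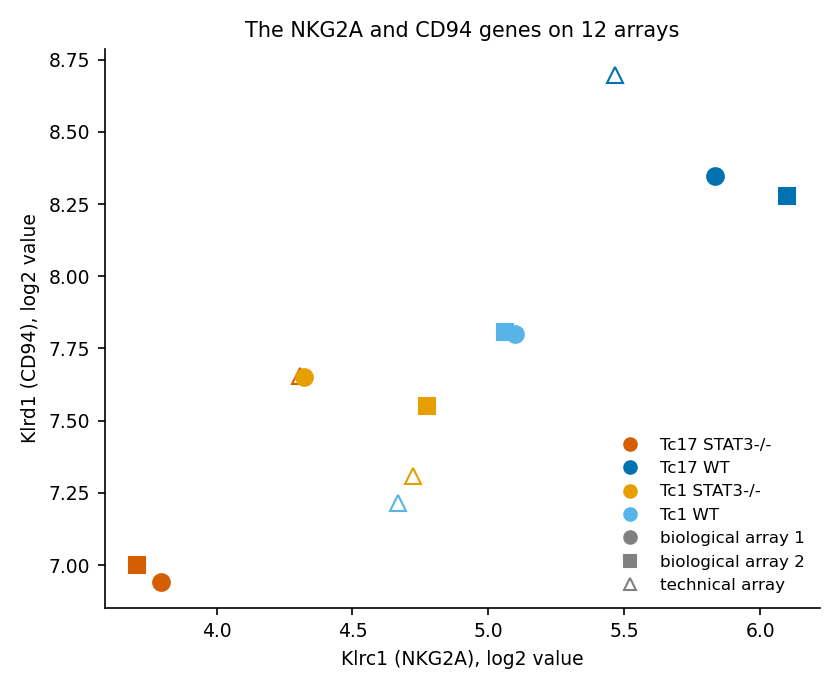
Log2 value of Klrd1 (CD94, y axis) against Klrc1 (NKG2A, x axis) on each of the 12 arrays, coloured by group, where circles are biological array 1, squares biological array 2 and open triangles technical arrays. The 3 Tc17 STAT3-/- arrays have Klrc1 between 3.71 and 4.31, the technical one beside a Tc1 STAT3-/- array at 4.32, and the 3 Tc17 WT arrays lie at the upper right.

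Other genes of the same chromosome 6 cluster bear on the pair. Among these genes the order in the RefSeq table is Klrd1, Klrk1, Klrc3, Klrc2 and Klrc1, so Klrk1 lies between the members of the pair. Klrc2 and Klrc3 are close relatives of Klrc1 that encode NKG2C and NKG2E. They read 1.77 to 2.58 and 1.73 to 2.22 over the 12 arrays and were not tested. Probes for these related genes may share targets, which the annotation does not settle.

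Klrk1, the NKG2D gene, did not move with its neighbours. It read 7.50, 7.72 and 8.18 on the Tc17 STAT3-/- arrays, against 7.12, 7.32 and 7.38 on the Tc17 WT arrays. The arrays did not overlap, but the gap between the lowest STAT3-/- and the highest WT array was small beside the spread of the STAT3-/- arrays. The means were 7.73 ± 0.32 in STAT3-/- cells and 7.24 ± 0.16 in WT cells (SD, n = 2 each). The log2 difference of 0.49 ± 0.17 (SE, 95% interval 0.11 to 0.87) missed the threshold, with a limma adjusted p of 0.0631. It passed with the technical arrays left out, at 0.39 (limma adjusted p = 0.0214). Without Tc17 STAT3-/- replicate 1 it was 0.71 and passed (adjusted p = 0.0405), and without Tc17 STAT3-/- replicate 2 it was 0.27 with an adjusted p of 0.37.

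On the Tc1 arrays Klrk1 read 8.05, 8.01 and 7.84 in STAT3-/- cells, against 8.36, 8.43 and 7.58 in WT cells. The WT technical array was the lowest of these 6 and the WT biological arrays were the highest, so the genotypes overlapped. The log2 difference was -0.19 (95% interval -0.57 to 0.19, limma adjusted p = 0.998), and the interaction of 0.68 ± 0.24 (SE) was not called (limma adjusted p = 0.124). Klrk1 was lower in Tc17 than in Tc1 cells of WT genotype, by -0.94 ± 0.17 (SE, 1.92-fold, limma adjusted p = 0.00472). In STAT3-/- cells that difference was -0.27 (limma adjusted p = 0.659). The order of its group means was Tc1 WT, Tc1 STAT3-/-, Tc17 STAT3-/- and Tc17 WT, from high to low. No neighbours in that order passed the test.

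Cd226, the DNAM-1 gene, moved opposite to the NKG2A and CD94 pair. Its log2 values were 6.83, 6.89 and 6.76 on the Tc17 STAT3-/- arrays, against 5.99, 5.85 and 5.54 on the Tc17 WT arrays. The lowest STAT3-/- array stood well above the highest WT array. The means were 6.83 ± 0.005 in STAT3-/- cells and 5.84 ± 0.21 in WT cells (SD, n = 2 each). The log2 change was 0.99 ± 0.16 (SE, 95% interval 0.63 to 1.35), 1.99-fold higher, with a limma adjusted p of 0.00282. In Tc1 cells Cd226 read 7.33, 6.93 and 6.80 without STAT3, against 7.0, 7.06 and 6.62 in WT cells. Those arrays were interleaved, and the log2 difference of 0.17 (95% interval -0.18 to 0.53) had a limma adjusted p of 0.998.

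The interaction for Cd226, 0.82 ± 0.22 (SE), missed the threshold with a limma adjusted p of 0.0647. It passed under 5 of 14 alternative settings that keep all 8 samples, with adjusted p-values over those settings between 0.003 and 0.13. With 1 sample left out it ranged from 0.58 to 1.05. It was 1.05 without Tc1 STAT3-/- replicate 1 and 0.96 without Tc17 WT replicate 1. Tc17 WT cells had less Cd226 RNA than Tc1 WT cells, by -1.08 ± 0.16 (SE, 2.12-fold, limma adjusted p = 0.00185). Tc17 STAT3-/- cells differed from Tc1 STAT3-/- cells by -0.27 (limma adjusted p = 0.62) and from Tc1 WT cells by -0.09 (limma adjusted p = 0.927). From high to low its group means ran Tc1 STAT3-/-, Tc1 WT, Tc17 STAT3-/- and Tc17 WT, and of the steps between neighbours only the last was called.

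Crtam, whose product recognises CADM1, followed the direction of the pair at a smaller size. It read 5.36, 5.50 and 5.59 on the Tc17 STAT3-/- arrays, against 6.20, 6.23 and 5.97 on the Tc17 WT arrays. The groups did not overlap, and the Tc17 WT arrays were also above all 6 Tc1 arrays. The means were 5.45 ± 0.13 in STAT3-/- cells and 6.15 ± 0.07 in WT cells (SD, n = 2 each). The log2 change was -0.70 ± 0.12 (SE, 95% interval -0.96 to -0.43), 1.62-fold lower, with a limma adjusted p of 0.0035. On the Tc1 arrays it read 5.75, 5.56 and 5.39 in STAT3-/- cells, against 5.68, 5.46 and 5.70 in WT cells. The Tc1 genotypes overlapped, with a log2 difference of -0.02 (95% interval -0.28 to 0.25, limma adjusted p = 0.998).

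The interaction for Crtam was -0.68 ± 0.17 (SE, limma adjusted p = 0.0446). It held without Tc1 STAT3-/- replicate 2 (adjusted p = 0.039) and missed the threshold when any of the other 7 samples was left out, with adjusted p-values of up to 0.181. In WT cells Crtam was higher in Tc17 than in Tc1 by 0.52 ± 0.12 (SE, 1.43-fold, limma adjusted p = 0.0133), which was lost without Tc1 WT replicate 2 (adjusted p = 0.0805). In STAT3-/- cells the difference was -0.16 (limma adjusted p = 0.724). Its groups ranked as those of the pair did, with only the step between Tc17 WT and Tc1 WT called among neighbours. The order of its 2 Tc1 groups rested on a log2 difference of -0.02 and is not firm. That difference was 0.085 with the technical arrays left out and 0.12 without Tc1 STAT3-/- replicate 2. Cadm1, the gene of its ligand, read 3.23 to 3.78 over the arrays and was not tested.

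The remaining members, Klrg1 and Klrb1c, were near the bottom of the range. Klrg1, the inhibitory cadherin receptor often used to mark short-lived effector CD8 T cells, read 3.41 to 3.62 on Tc17 STAT3-/- arrays and 3.55 to 3.72 on Tc17 WT arrays. On Tc1 arrays it read 3.62 to 3.68 in STAT3-/- cells and 3.63 to 4.00 in WT cells. Its mean over all arrays exceeded that of 33.5% of genes, and the group means differed by at most 0.19 within a genotype or a culture condition. Klrb1c, the NK1.1 gene, read 2.12 to 2.32 in Tc17 STAT3-/- cells and 2.15 to 2.65 in Tc17 WT cells. On the Tc1 arrays Klrb1c read 1.95 to 2.42 in STAT3-/- cells and 1.61 to 2.24 in WT cells. It exceeded 4.41% of genes, and a probe set shared by Klrb1a and Klrb1c read 1.87 to 2.63. The largest difference between its group means within a genotype or a culture condition was 0.54, for Tc17 over Tc1 in WT cells. Neither gene was tested.

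**Figure D3:**
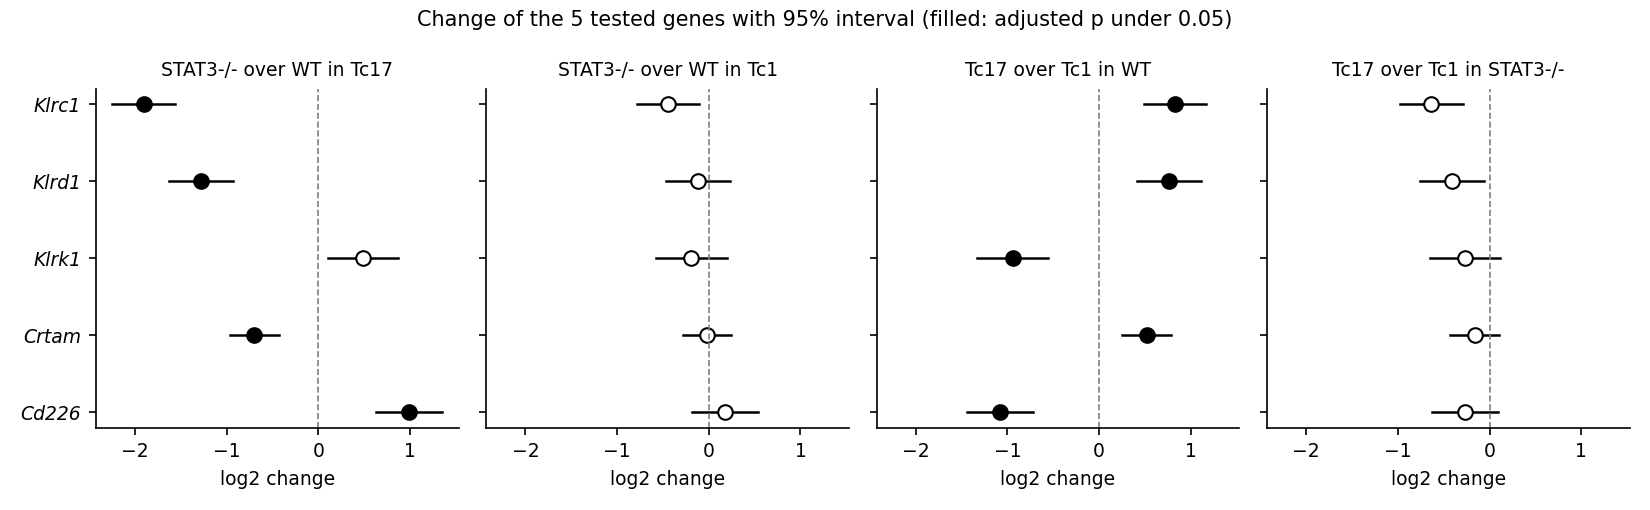
Log2 change (x axis) of the 5 tested members with 95% intervals, for STAT3-/- over WT in Tc17 and in Tc1 cells and for Tc17 over Tc1 in each genotype. Filled points passed a limma adjusted p under 0.05, and Klrc1, at -1.91 in Tc17, lies farthest from 0.

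A comparison of Tc17 STAT3-/- with Tc1 WT cells set the altered cells against the other WT state. Klrc1 was 2.11-fold lower in Tc17 STAT3-/- cells (log2 change -1.08 ± 0.15 SE, limma adjusted p = 0.00599), with the arrays apart, as for 22.3% of all genes. Klrc1 was the 1 member of 5 that passed, where 2.26% of all genes did, 1.31% higher and 0.953% lower. It missed the threshold when Tc17 STAT3-/- replicate 1 (adjusted p = 0.0659) or Tc1 WT replicate 1 (adjusted p = 0.0509) was left out. Klrd1 differed by -0.52 (limma adjusted p = 0.177), Klrk1 by -0.45 (adjusted p = 0.338) and Crtam by -0.18 (adjusted p = 0.717). With the technical arrays left out, Klrd1 stood at -0.83 (adjusted p = 0.000389) and Klrk1 at -0.78 (adjusted p = 0.00256), and both passed.

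Receptors related to the members by ligand or family moved in both directions. A list of 31 other NK receptor genes had 23 with a probe set and 8 that were tested. Between Tc17 STAT3-/- and Tc17 WT cells, 4 of the 8 passed higher and 1 lower, where 18.2% of all genes passed higher and 6.83% lower, with a median log2 change of 0.42 against 0.11 over all genes tested. Tigit, an inhibitory receptor for the DNAM-1 ligand CD155, read 8.68, 8.63 and 9.06 in Tc17 STAT3-/- cells, against 7.76, 7.84 and 7.32 in Tc17 WT cells. Its log2 change was 1.09 ± 0.12 (SE, limma adjusted p = 0.000467), and the groups did not overlap. Cd96, another CD155 receptor, read 9.95, 10.06 and 10.14 in Tc17 STAT3-/- cells, against 9.15, 9.23 and 9.33 in Tc17 WT cells. It was 0.81 ± 0.10 (SE) higher (limma adjusted p = 9e-04), so the transcripts of all 3 CD155 receptors, Cd226 included, were higher without STAT3 in Tc17 cells. They did not share 1 order of groups. Between Tc17 and Tc1 WT cells Cd96 differed by 0.06 (limma adjusted p = 0.707), whereas Cd226 and Tigit were called lower in Tc17.

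Cd244a, which encodes the SLAM-family receptor 2B4, read 6.24, 6.33 and 6.31 in Tc17 STAT3-/- cells, against 4.90, 4.49 and 4.35 in Tc17 WT cells. It was 1.62 ± 0.15 (SE) higher (limma adjusted p = 0.00018), with no overlap. Lilrb4a, an inhibitory Ig-like receptor, read 7.34, 7.77 and 7.58 in Tc17 STAT3-/- cells, against 10.42, 10.55 and 9.93 in Tc17 WT cells. It was 7.08-fold lower (log2 change -2.82 ± 0.23 SE, limma adjusted p = 6.5e-05), the only tested gene of the list to pass in that direction. Its near copy Lilrb4b could share probes with it, which was not settled here. Between Tc17 and Tc1 cells of WT genotype 1 of the 8 passed higher and 3 lower, against 7.01% and 18% of all genes. Those were Lilrb4a (1.77 ± 0.23), Cd244a (-0.83 ± 0.15), Tigit (-0.61 ± 0.12) and the SLAM-family gene Slamf7 (-0.48 ± 0.11), as log2 changes with SE. The Tigit call was lost without Tc1 WT replicate 2 (adjusted p = 0.0573). The Slamf7 call was lost without Tc17 WT replicate 2 (adjusted p = 0.0546) or Tc1 WT replicate 1 (adjusted p = 0.106).

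Among 21 genes of ligands for the members, 15 had a probe set and 7 were tested. Between Tc17 STAT3-/- and Tc17 WT cells 2 of the 7 passed, both higher, with a list median of 0.21. This count is near the background, as 25.1% of all genes passed, 18.2% higher. Ulbp1, which encodes the NKG2D ligand MULT-1, read 7.28 to 7.30 in Tc17 STAT3-/- cells and 4.83 to 6.05 in Tc17 WT cells. Its log2 change was 1.62 ± 0.15 (SE, limma adjusted p = 0.000165), and it was lower in Tc17 than in Tc1 cells of WT genotype by -1.75 ± 0.15 (adjusted p = 9.9e-05). Cdh1, the gene of the KLRG1 ligand E-cadherin, rose by 1.06 ± 0.21 (SE, adjusted p = 0.0073) in Tc17 STAT3-/- cells. Its technical array there read 7.01 and stood apart from its biological arrays, the lowest of which read 5.75.

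**Figure D4:**
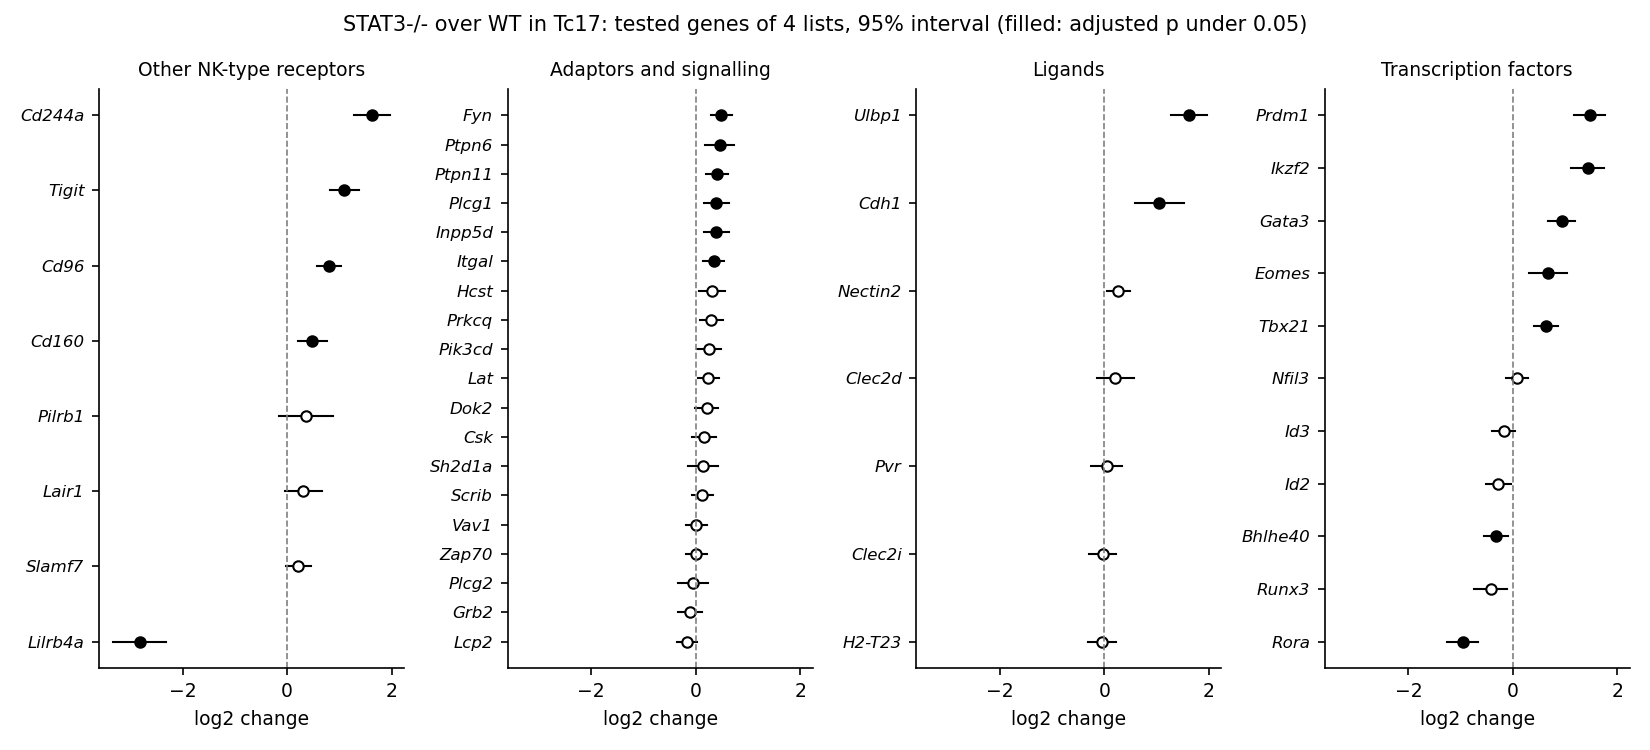
Log2 change between Tc17 STAT3-/- and Tc17 WT cells (x axis, with 95% intervals) of the tested genes (y axis) of 4 lists, namely other NK receptors, adaptors and signalling partners, ligands and transcription factors. Filled points passed a limma adjusted p under 0.05, and Lilrb4a at -2.82 and Cd244a at 1.62 are the ends of the range.

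Of 24 listed adaptors and signalling partners, 23 had a probe set and 19 were tested. Between Tc17 STAT3-/- and Tc17 WT cells 6 passed, all higher, with a median log2 change of 0.24, against 25.1% of all genes passing and 18.2% higher. They included Fyn, a Src-family kinase, at 0.49 ± 0.09 (SE, limma adjusted p = 0.00526), and Ptpn6, which encodes the phosphatase SHP-1 recruited by NKG2A, at 0.46 ± 0.12 (adjusted p = 0.0241). Ptpn11, the gene of the related phosphatase SHP-2, changed by 0.40 ± 0.09 (adjusted p = 0.0151) and the phospholipase gene Plcg1 by 0.40 ± 0.10 (adjusted p = 0.0223). Without Tc17 STAT3-/- replicate 1 none of these 4 passed, with adjusted p-values of 0.0564 for Fyn, 0.065 for Ptpn6, 0.0896 for Ptpn11 and 0.15 for Plcg1. Ptpn6, Ptpn11 and Plcg1 also missed the threshold without Tc17 STAT3-/- replicate 2 or Tc17 WT replicate 2, and Ptpn6 was then at its lowest, 0.29, without the Tc17 WT sample. With all samples kept, Ptpn6 missed it with no filter (0.0549) and in a fit of the compared groups only (0.0641), and Plcg1 with no filter (0.0584) and after cyclic loess scaling, at 0.26 (0.0765). In WT cells 6 of the 19 were lower in Tc17 than in Tc1 and 0 were higher, where 18% of all genes were lower and 7.01% higher. Prkcq, which encodes protein kinase C theta, was among them at -0.53 ± 0.10 (SE, adjusted p = 0.0058), as were Dok2 (-0.51), Itgal (-0.42) and Pik3cd (-0.40). Dok2 missed the threshold without Tc1 WT replicate 1 (adjusted p = 0.056) and Itgal without Tc1 WT replicate 2 (0.0689). Pik3cd missed it without Tc1 WT replicate 1 (0.157) or Tc17 WT replicate 2 (0.0752), and also with no filter (0.0546), after cyclic loess (0.0631) and in a fit of the compared groups only (0.0686). Hcst, which encodes the NKG2D adaptor DAP10, differed by 0.31 between Tc17 STAT3-/- and Tc17 WT cells and was not called (limma adjusted p = 0.0649).

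Transcription factors known for NK receptor genes or effector CD8 T cells formed a list of 14, of which 11 were tested. Between Tc17 STAT3-/- and Tc17 WT cells 5 passed higher and 2 lower, against 18.2% and 6.83% of all genes, with a median of 0.09. Prdm1, which encodes Blimp-1, rose by 1.47 ± 0.13 (SE, limma adjusted p = 0.000132), Ikzf2 by 1.43 ± 0.14 (adjusted p = 0.000243) and Gata3 by 0.94 ± 0.11 (adjusted p = 0.000742). Rora, the gene of the type 17 factor RORalpha, fell by 0.96 ± 0.13 (adjusted p = 0.00141). In WT cells 2 of the 11 were higher in Tc17 than in Tc1 and 5 were lower, against 7.01% and 18% of all genes. Eomes (-1.58 ± 0.16), Prdm1 (-1.53 ± 0.13) and Tbx21, which encodes T-bet, (-0.99 ± 0.10) were lower and Rora (0.97 ± 0.13) was higher, as log2 changes with SE, at adjusted p-values of at most 0.00135. In Tc1 cells 0 of the 45 tested genes of these 4 lists passed between the genotypes with limma. This count is near the background, as 0.0608% of all genes passed. An unadjusted limma p under 0.05 was found for 4 of the 45, against 370 of all 9862 genes tested.

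Genes with the pattern most like each member were ranked by Pearson r over the 8 samples among 9861 other genes. For Klrc1 they were Plekho2 (r = 0.964), Ube2o (0.962), Satb1 (0.954), Tnnc2 (0.953) and Serpinb1a (0.952), and Klrd1 ranked 22. For Klrd1 they were Lilrb4a (0.985), Foxi2 (0.982), Acadl (0.979), Acp5 (0.977) and Atrnl1 (0.975), with Crtam at rank 11 (0.964) and Klrc1 at 49. Lilrb4a was also first for Crtam (0.981). Satb1, a chromatin organiser, averaged 7.82 ± 0.02 in Tc17 STAT3-/- cells and 9.51 ± 0.03 in Tc17 WT cells, and 8.66 ± 0.11 in Tc1 STAT3-/- cells and 8.79 ± 0.06 in Tc1 WT cells (SD, n = 2 each). For Klrk1 the nearest were Bcas2 (0.971) and Gimap4 (0.970), and for Cd226 they were Kif18a (0.997) and Pole2 (0.997). Cd226 and Klrk1 had an r of 0.816 with each other. The samples form 4 groups of 2, so many genes that follow the groups reach a high r. Like Klrc1, the genes Tnnc2, Serpinb1a and Foxi2 reached a group mean of 5 only in Tc17 WT cells. Their likeness to the pair was thus in part set by the filter.

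The labels were checked on the same arrays. The CD8 T cell list averaged 9.78 to 9.95 per array, and Stat3 was lower without STAT3 by a log2 change of -2.85 in Tc17 and -2.66 in Tc1 cells, with no overlap. Of 12 NK cell markers 9 had a probe set and only Gzma, a granzyme also made by CD8 T cells, reached 5. Gzma was higher in Tc17 than in Tc1 cells by 1.18 in WT (limma adjusted p = 0.00106) and by 0.87 in STAT3-/- cells (adjusted p = 0.0217), and so moved with Klrc1, Klrd1 and Crtam between the WT groups. Between the Tc17 genotypes Gzma changed by -0.30 and was not called. The list averaged 3.75 to 3.81 per array in Tc17 STAT3-/- cells and 3.82 to 3.96 in Tc17 WT cells. It averaged 3.61 to 3.77 in Tc1 STAT3-/- cells and 3.70 to 3.81 in Tc1 WT cells. Like the pair, the list was highest in Tc17 WT cells. Its lowest array was a Tc1 STAT3-/- array, whereas the pair had its lowest means in Tc17 STAT3-/- cells. The genes of the list did not move together. By group mean Gzma, Klre1, Klri2 and Tyrobp were highest in Tc17 WT cells, and Fcgr3, Fcer1g and Klra9 were lowest there. Ncr1 and Itgam were neither. Ncr1, which encodes the NK cell receptor NKp46, read 3.18 to 3.41 in Tc17 STAT3-/- cells and 3.32 to 3.59 in Tc17 WT cells. Markers of NKT and gamma-delta T cells averaged 4.44 to 4.71 in Tc17 STAT3-/- cells and 4.94 to 5.32 in Tc17 WT cells, and 4.50 to 4.73 in Tc1 STAT3-/- cells and 4.51 to 4.74 in Tc1 WT cells. Of the 3 tested genes of that list 2 moved with the pair, Tmem176a and Tmem176b. Both were lower in Tc17 STAT3-/- than in Tc17 WT cells (-0.68 and -1.25, adjusted p = 0.0157 and 0.00228), as were 6.83% of all genes. Both were higher in Tc17 WT than in Tc1 WT cells (0.80 and 1.02, adjusted p = 0.00799 and 0.00568), as were 7.01% of all genes. Tmem176b reached a group mean of 5 only in Tc17 WT cells, so its lower level elsewhere was in part set by the filter. Sox13, the other tested gene of that list, read 4.99 to 5.27 in Tc17 STAT3-/- cells and 5.10 to 5.55 in Tc17 WT cells. It was not called in either comparison. Zbtb16 read 4.01 to 4.44 in Tc17 STAT3-/- cells and 4.25 to 4.91 in Tc17 WT cells and was not tested. Blk, also not tested, read 3.67 to 3.75 in Tc17 STAT3-/- cells and 3.87 to 3.95 in Tc17 WT cells. B cell markers averaged 5.22 to 5.32 in Tc17 STAT3-/- cells and 4.88 to 4.94 in Tc17 WT cells, through Ighm and Cd79b, while Ms4a1 stayed at or below 2.65. CD4 T cell markers averaged 4.52 to 4.74 in Tc17 STAT3-/- cells and 4.54 to 5.05 in Tc17 WT cells. Myeloid markers averaged 4.08 to 4.09 in Tc17 STAT3-/- cells and 4.13 to 4.33 in Tc17 WT cells. Cd68, the only gene of that list to reach 5, was lower in Tc17 STAT3-/- than in Tc17 WT cells. The others did not move together. By group mean Lyz2 and Adgre1 were also lower there, and Csf1r, Cd14, Itgax and Fcgr1 were higher. The part of these markers in the members' changes was not tested. On the leading principal component, which held 54.4% of the variance, the technical Tc17 WT array scored 44.8 and its biological arrays scored 25.4 and 25.8. With that technical array left out, the calls of Klrc1, Klrd1, Crtam and Cd226 between the Tc17 genotypes held.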

How the data were processed

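The deposited values are 1 log2 value per probe set and array, which the authors made with RMA (background correction, normalisation between arrays and summary of probes) and Partek, per the submitters' processing notes. The sources used here do not give versions or say which tool did which step. That the scale is log2 was read from the range, whose top is 13.3. Of 41345 probe sets, 23521 had 1 gene symbol, 1814 several and 16010 none as used here. Genes with more than 1 probe set, 1082 in all, kept the one with the highest mean. The filter of a group mean of 5 removed 12318 of 22180 genes.

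Technical arrays were averaged with biological replicate 2, and no columns were identical. Over tested genes, differences had an SD of 0.144 to 0.192 between a group's biological arrays. The SD was 0.209 to 0.352 between its technical array and biological array 2, and 0.195 to 0.372 between its technical array and biological array 1. In both STAT3-/- groups the technical array was slightly nearer to biological array 1. These values thus do not settle which replicate it repeats. As no label names separate animals or cultures, p-values cover the spread of these samples alone, part of which may be technical. limma 3.58.1 (R 4.3.3; lmFit, contrasts.fit, eBayes) fitted group means over the 8 samples with 4 residual and 4.87 prior degrees of freedom, after tests on simulated data. The R package data.table (1.17.8) read the files, and plots were made with Python 3.11.15 and matplotlib 3.10.9. All p-values are two-sided. Members, lists and tests were chosen with earlier results of these data known. Named list genes were up to 4 per list with the largest called change, between Tc17 genotypes and between Tc17 and Tc1 WT cells, and up to 5 per member by likeness. H2-T23, Cadm1, Hcst and the single markers were named after their values were seen. Alternatives changed the filter, the probe set rule, the scaling, the use of technical arrays, the fit and the samples kept.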

Additional observations from a re-analysis of the deposited data

Results flagged for a closer look

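For 3 of the 5 tested members the interaction was called (limma, adjusted over all genes tested), against 6.85% of all genes. For these the change that goes with loss of STAT3 differed between Tc17 and Tc1 cells. The log2 effect in Tc17 minus that in Tc1 was -1.46 for Klrc1 (adjusted p = 0.00563), -1.17 for Klrd1 (adjusted p = 0.0159) and -0.68 for Crtam (adjusted p = 0.0446). The Klrd1 and Crtam calls were lost when some single samples were left out. With all 8 samples kept, the Crtam call held in 12 of 14 alternative settings and was lost with no filter (limma adjusted p = 0.106). In the 4 other lists 10 of the 45 tested genes had a called interaction, against 6.85% of all genes, and 0 of the 19 adaptors and signalling partners did. The genes given next had been named for called changes between Tc17 genotypes or between WT cultures. The interaction uses the same values, so it is no separate support for those changes. Unlike those of the members, the interactions of these genes were not run under the alternative settings or with samples left out. Among the other NK receptor genes the interaction was -2.58 for Lilrb4a (adjusted p = 0.00238), 1.52 for Cd244a (adjusted p = 0.00515), 0.98 for Tigit (adjusted p = 0.0134) and 0.61 for Cd96 (adjusted p = 0.0422). The NKG2D ligand gene Ulbp1 differed by 1.17 (adjusted p = 0.0148). Among transcription factors, Prdm1 differed by 1.33 (adjusted p = 0.00477), Gata3 by 0.91 (adjusted p = 0.0136), Rora by -1.0 (adjusted p = 0.0166), Ikzf2 by 0.96 (adjusted p = 0.0259) and Tbx21 by 0.64 (adjusted p = 0.0357).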

How the results depend on the processing

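With all 8 samples kept, the calls of Klrc1, Klrd1, Crtam and Cd226 between Tc17 genotypes and of all 5 tested members between Tc17 and Tc1 WT cells held in every alternative run, 14 for Klrc1, which could not be tested with the filter at 6, and 15 for the others. The causes of the changes below were not tested. Without technical arrays, Klrk1 passed between Tc17 genotypes at 0.39 (limma adjusted p = 0.0214), the interactions of Klrk1 at 0.75 (0.0114) and Cd226 at 0.85 (0.0149) passed, and Crtam turned to 0.085 (0.802) between Tc1 genotypes. The genes called then numbered 17 between Tc1 genotypes, 1246 for the interaction, 398 between Tc17 and Tc1 STAT3-/- cells and 373 between Tc17 STAT3-/- and Tc1 WT cells, against 6, 676, 204 and 223 as reported. With the technical array averaged into biological replicate 1, Klrk1 passed at 0.50 (0.0202), its interaction at 0.71 (0.0408) and that of Cd226 at 0.98 (0.003), and 16 genes were called between Tc1 genotypes. As a sample of its own it gave 13 genes there and a called Cd226 interaction of 0.91 (0.0279), and leaving out that of Tc17 WT alone gave 14 genes. Leaving out that of Tc17 STAT3-/- alone, chosen after seeing the data, gave Klrd1 a called -0.68 (0.0225) between Tc17 STAT3-/- and Tc1 WT cells. With no filter the interaction had 384 genes and Crtam missed it at -0.68 (0.106). Subtracting the median of all probe sets gave Klrk1 0.55 (0.0425) between Tc17 genotypes and a Crtam interaction of -0.61 (0.079). The median gene differed by 0.11 between Tc17 genotypes, and subtracting the median of tested genes moved the split of calls as given with those counts. A trended, robust fit called Klrk1 at 0.49 (0.0424) and the Cd226 interaction at 0.82 (0.0458). A fit of the compared groups only called 1479 genes between Tc17 and Tc1 WT cells, against 2468. Genotypes shared cultures, but no label ties same-numbered samples to 1 culture, and their deviations correlated at 0.455 between Tc1 genotypes and 0.0988 between Tc17 genotypes. The replicate block gave 1018 interaction genes, 15 between Tc1 genotypes and a called Cd226 interaction of 0.82 (0.0167), and changed no other member's call. With 1 sample left out, which is then assumed to leave a lone sample varying like the other groups, genes called ranged from 943 to 3191 between Tc17 genotypes, 244 to 1555 for the interaction, 1100 to 3232 between Tc17 and Tc1 WT cells, 65 to 247 between Tc17 and Tc1 STAT3-/- cells and 89 to 269 between Tc17 STAT3-/- and Tc1 WT cells. Klrk1 then ranged from 0.27 to 0.71 between Tc17 genotypes. Between Tc1 genotypes the ranges were -0.66 to -0.23 for Klrc1, -0.26 to 0.029 for Klrd1, -0.37 to -0.013 for Klrk1, -0.15 to 0.12 for Crtam and -0.056 to 0.41 for Cd226, none called. Interactions ranged from -1.36 to -0.98 for Klrd1, -0.81 to -0.54 for Crtam and 0.58 to 1.05 for Cd226. Signal near background limits Klrc1 in Tc17 STAT3-/- cells and leaves Klrg1 and Klrb1c untested.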
